A study of Mus musculus with 4 samples.

Results

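The genes described here encode the proteins of the cytosolic ribosome, and they were examined in follicular B (FOB) cells that lacked or kept hnRNP F, an RNA-binding protein that regulates splicing. They were chosen by symbol: a gene was a member if its symbol was Rps or Rpl followed by a number and, at most, a closing a, x, l or l1, or if it was Rplp0, Rplp1, Rplp2 or Rpsa. The rule used no measured value, and it took 86 of the 55401 genes in the count table. Of these, 33 encode proteins of the small (40S) subunit or their paralogs, 50 those of the large (60S) subunit and 3 the acidic stalk of the 60S subunit (the P stalk). The members lie on 19 chromosomes. Both groups of mice were C57BL/6, 7 weeks old, and homozygous for a loxP-flanked Hnrnpf allele. WT mice (Hnrnpf fl/fl) carried no Cre. Hnrnpf bKO mice carried in addition 1 allele of a Cre knock-in that is active in B cells and removes exon 4 of Hnrnpf there. FOB cells were sorted from the spleen as B220+ CD93- CD23high CD21low cells, and 2 samples of each genotype, WT 1 and 2 and Hnrnpf bKO 1 and 2, went into RNA sequencing. Neither the labels nor the methods say how many mice a sample held, so p-values measure the spread between these samples.

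The cytosolic ribosome translates nuclear-encoded mRNAs. The 40S subunit reads the mRNA, the 60S subunit joins the amino acids, and the P stalk calls the translation factors to the ribosome. Most ribosomal proteins enter the ribosome as a single copy, the mRNAs of ribosomal proteins are among the most abundant of a lymphocyte, and many of these mRNAs begin with a run of pyrimidines, the 5' terminal oligopyrimidine (TOP) tract, through which mTORC1 signalling tunes their translation. A resting B cell that meets antigen grows and divides, for which it makes many new ribosomes. Mammalian ribosomal protein genes also have many processed pseudogenes, which are intronless copies of the mRNA inserted elsewhere in the genome.

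Hnrnpf itself had 5780 and 6634 counts in WT 1 and 2 against 1167 and 1194 in Hnrnpf bKO 1 and 2, so that 20.1% of the WT level was left (log2 fold change -2.32, SE 0.06, adjusted p = 1.05e-10, edgeR quasi-likelihood test with Benjamini-Hochberg adjustment, as for every adjusted p here unless another tool is named). Libraries held 15698567 to 18908963 counts, and the TMM factors that scale them lay between 0.992 and 1.01. The 3 follicular B cell markers summed to 5155 and 5224 CPM (counts per 1e6 counts of the library) in WT and 5706 and 5687 CPM in bKO. Of 5 neutrophil markers, 2 were called higher in bKO (S100a8 and S100a9), and all 5 together made 5.26 and 7.35 CPM in WT and 12.9 and 21.4 CPM in bKO. The summed levels of T cell, macrophage, plasma cell and red cell markers overlapped between the groups, at 115 CPM or less, and no marker was at 0 in all 4 libraries. The part of other cells in the differences below was not tested.

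Levels were compared between genes per length, as the deposited FPKM (fragments scaled to exon length and to library size). Ribosomal protein genes made up 25 of the 100 genes with the highest mean FPKM and 3 of the highest 20. The highest was Rplp1, a P stalk protein, with 2258 and 2357 FPKM in WT and 2523 and 2429 FPKM in bKO. Rps15, a protein of the 40S head, followed with 1896 and 1925 FPKM in WT and 1885 and 1864 FPKM in bKO. Also among the 10 highest in mean FPKM were Rpl8 with 1137, Rpl36 with 1127, Rplp0 with 1119, Rpl4 with 919, Rpl32 with 836 and Rps4x with 747 FPKM. The 10 highest genes held 31.1% to 31.2% of all counts on members in every library. The 4 libraries lay close together at each gene named.

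**Figure D1:**
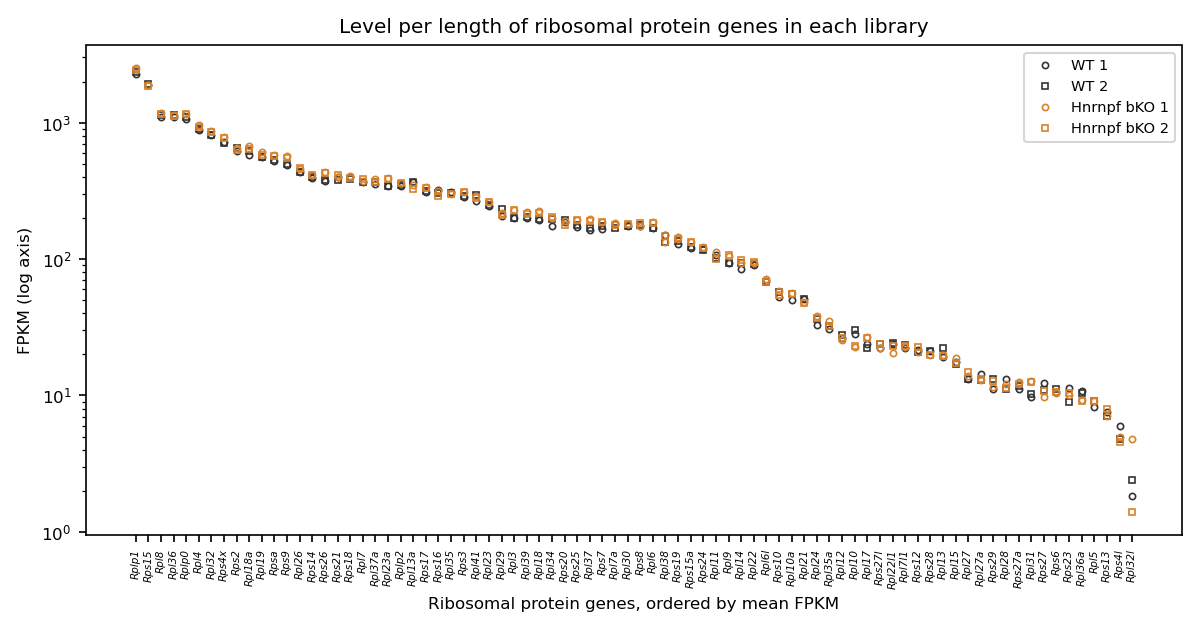
FPKM of ribosomal protein genes that passed the filter on low counts, on a log axis, with 1 mark for each library and genes ordered by mean FPKM. Levels fall from Rplp1 (mean 2392 FPKM) to Rpl32l (mean 2.6 FPKM), and the 4 libraries lie close together at nearly every gene.

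The members differed widely in this measure, which depends also on the exonic size that each gene is divided by. That size was 499 bases for Rplp1 and 4483 for Rps3, whose coding sequence has 729 bases. Rps3 had 1273 and 1302 CPM in WT, and Rplp1 had 1127 and 1176 CPM. The mean was nevertheless 298 FPKM for Rps3 and 2392 FPKM for Rplp1. Leaving out the 10 paralogs, the 76 other members ranged over 323-fold in FPKM, down to Rps13 with 7.4 FPKM. Of all 86 members, 49 had a mean of at least 100 FPKM and 6 at least 1000 FPKM. With untested members included, the median of the 40S genes was 179 FPKM, that of the 60S genes 102 FPKM and that of the P stalk genes 1119 FPKM. Over the 14123 genes tested it was 6.03 FPKM.

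Many low members had counts on near-identical copies elsewhere in the genome. The coding sequences of 82 members were aligned to the GENCODE M21 transcripts of GRCm38, and a gene at another locus was taken as a copy if it matched at least 90% of the aligned bases over at least 80% of the coding sequence. There were 990 such copies of 76 members, of which 970 are annotated as pseudogenes and 507 had at least 1 count. Over the 4 libraries the copies held 14.0% of the counts on members and copies together. A copy entered with all counts of its gene, including any outside the matching stretch. Wdr89, the only copy of Rplp2, thus entered with all of its 1168 counts. For 17 members the copies held more counts than the gene itself.

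How alike a gene and its copy can be is shown by 3 pairs, each cut to a short stretch within a single exon of each gene. The stretch lies around the base that differs, or around the middle of the coding sequence where none does. It is read 5' to 3' on the coding strand, with the bases that differ in capitals. In Rpl37, a 60S protein described below, the coding sequence differs from that of its main copy Rpl37rt at 1 of 291 bases, which is G249A counted from the A of the start codon. In Rpl9, also of the 60S subunit, it differs from Rpl9-ps6 at 1 of 576 bases, which is G266A. In Rps12, a 40S protein, it is the same as in Rps12-ps3 at all 396 bases, so the last pair has no capitals. All coordinates are GRCm38.
Rpl37, chr15:5118567-5118621, + strand: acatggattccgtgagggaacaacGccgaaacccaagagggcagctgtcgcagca
Rpl37rt, chr5:115103243-115103297, - strand: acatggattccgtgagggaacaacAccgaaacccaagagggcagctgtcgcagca
Rpl9, chr5:65389573-65389610, - strand: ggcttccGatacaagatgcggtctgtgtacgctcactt
Rpl9-ps6, chr19:32466256-32466293, - strand: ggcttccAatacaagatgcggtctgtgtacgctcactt
Rps12, chr10:23785907-23785967, - strand: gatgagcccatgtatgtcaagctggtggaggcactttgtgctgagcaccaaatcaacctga
Rps12-ps3, chr19:59322539-59322599, + strand: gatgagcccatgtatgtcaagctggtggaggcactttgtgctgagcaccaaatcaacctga

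Members at a low level more often had an identical copy. Of the 27 members tested under 50 FPKM, 17 (63.0%) had a copy identical over the whole aligned coding sequence, against 4 (7.27%) of the 55 at or above 50 FPKM. The median share of counts on copies was 51.0% in the lower set and 4.82% in the higher. Counts of the gene itself enter this share, so few counts on the gene raise it and it is not independent of the level. Rps12 drew 708 and 791 counts in WT against 659 and 832 in bKO, while Rps12-ps3, the identical copy printed above, drew 5673 and 7133 in WT and 7232 and 7595 in bKO. Per length this was a mean of 21.4 FPKM for the gene and 1013 FPKM for the copy. Copies held 94.98% of the counts of Rpl17 and its copies, 91.4% for Rps29, 90.7% for Rps27, 90.4% for Rps12, 87.6% for Rpl27a, 83.7% for Rpl36a and 83.4% for Rps28. The levels and changes of such genes are uncertain, because how the counting treated reads that match a gene and its copy equally is not given in the sources used here.

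**Figure D2:**
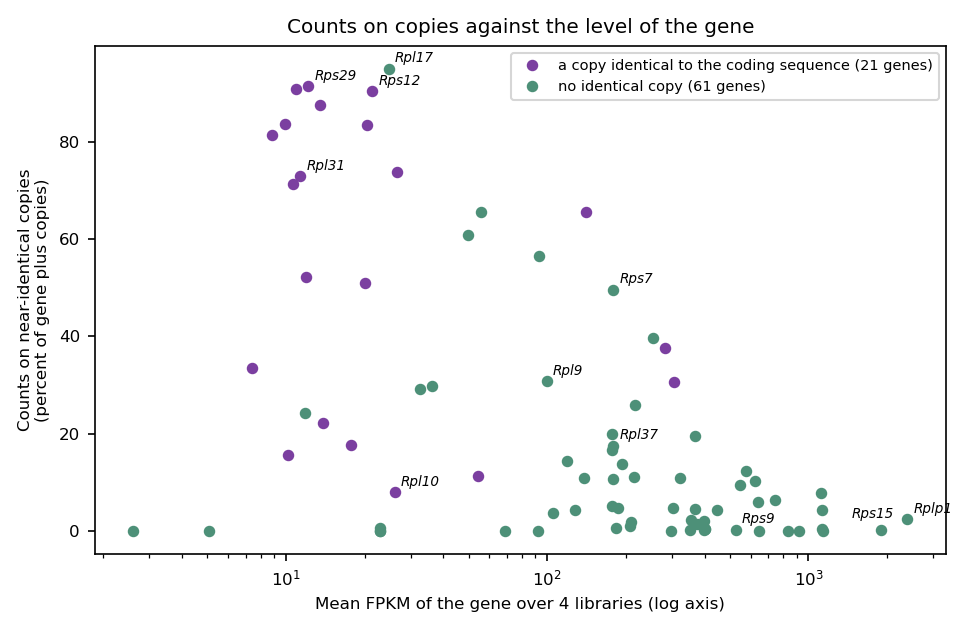
Share of counts on near-identical copies (percent of the counts on the gene and its copies, over all 4 libraries) against the mean FPKM of the gene on a log axis, with 1 point for each of the 82 members tested. The 21 genes with an identical copy lie mostly at low FPKM and high shares, and the genes above 400 FPKM have shares under 13%. Counts of the gene enter both axes, so the axes are not independent.

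Loss of hnRNP F was compared with WT at each gene to ask whether the mRNAs of the ribosome change with it. Most ribosomal protein genes had a small positive fold change in bKO, of 17.5% at most where the average was 1000 counts or more, and 8 of them passed the test, 7 higher and 1 lower. Those higher belong to both subunits, and the gene that was lower, Rpl10, belongs to the 60S subunit. The members summed to 3.77% and 3.83% of all counts in the WT libraries (3.80% ± 0.05, SD, n = 2) and to 4.06% and 3.98% in the bKO libraries (4.02% ± 0.05, SD, n = 2), a ratio of 1.06. Both bKO libraries lay above both WT libraries. With 2 samples against 2, an exact two-sided permutation test cannot give a p under 0.333. The same order held for each class: 1.76% and 1.78% against 1.89% and 1.85% for the 40S genes, 1.65% and 1.68% against 1.78% and 1.74% for the 60S genes, and 0.360% and 0.372% against 0.393% and 0.389% for the P stalk genes. In bulk RNA from sorted cells, a change in the mix of cells and a change in the RNA of each cell cannot be told apart.

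Of the 86 members, 82 passed the filter on low counts and were tested. At an adjusted p of at most 0.05, 7 were higher in bKO (Rpl37, Rps26, Rps9, Rpl3, Rpl18, Rpl23a and Rpl9) and 1 was lower (Rpl10). Over all 14123 genes tested, 4.15% were called higher and 2.83% lower, so the 7 of 82 (8.54%) exceed the background share and the 1 of 82 (1.22%) lies below it. Abundant genes are called more often: among the 3970 genes that averaged 1000 counts or more, 7.33% were called higher and 5.59% lower, against 7 (11.9%) higher and 0 lower of the 59 members at that depth. No member reached the 2-fold change that the study used as its threshold. Over all genes tested, 0.899% had such a change together with an adjusted p of at most 0.05. At an unadjusted p under 0.05, 26 members were higher and 1 lower, where the shares over all genes were 11% and 9.3%.

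The direction was shared more widely than the calls. Of the 82 members, 62 (75.6%) had a positive log2 fold change and 20 a negative one, against 49.6% positive among all genes tested. The median log2 fold change was 0.08 over the members, 0.06 over the 40S genes, 0.08 over the 60S genes and 0.11 over the P stalk genes, against -0.0023 over all genes tested. Among the 59 members with at least 1000 counts on average, 50 were positive (84.7%, against 48.4% of all genes at that depth), and their median was 0.09. Among the 23 shallower members, 12 were positive and the median was 0.01. Members are not independent of each other, since near-identical copies and normalization are shared, and no test was made over the list. The libraries of the groups did not overlap in 44 members that were higher and 10 that were lower in bKO, where 23.5% of all genes were higher without overlap and 26.9% lower.

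**Figure D3:**
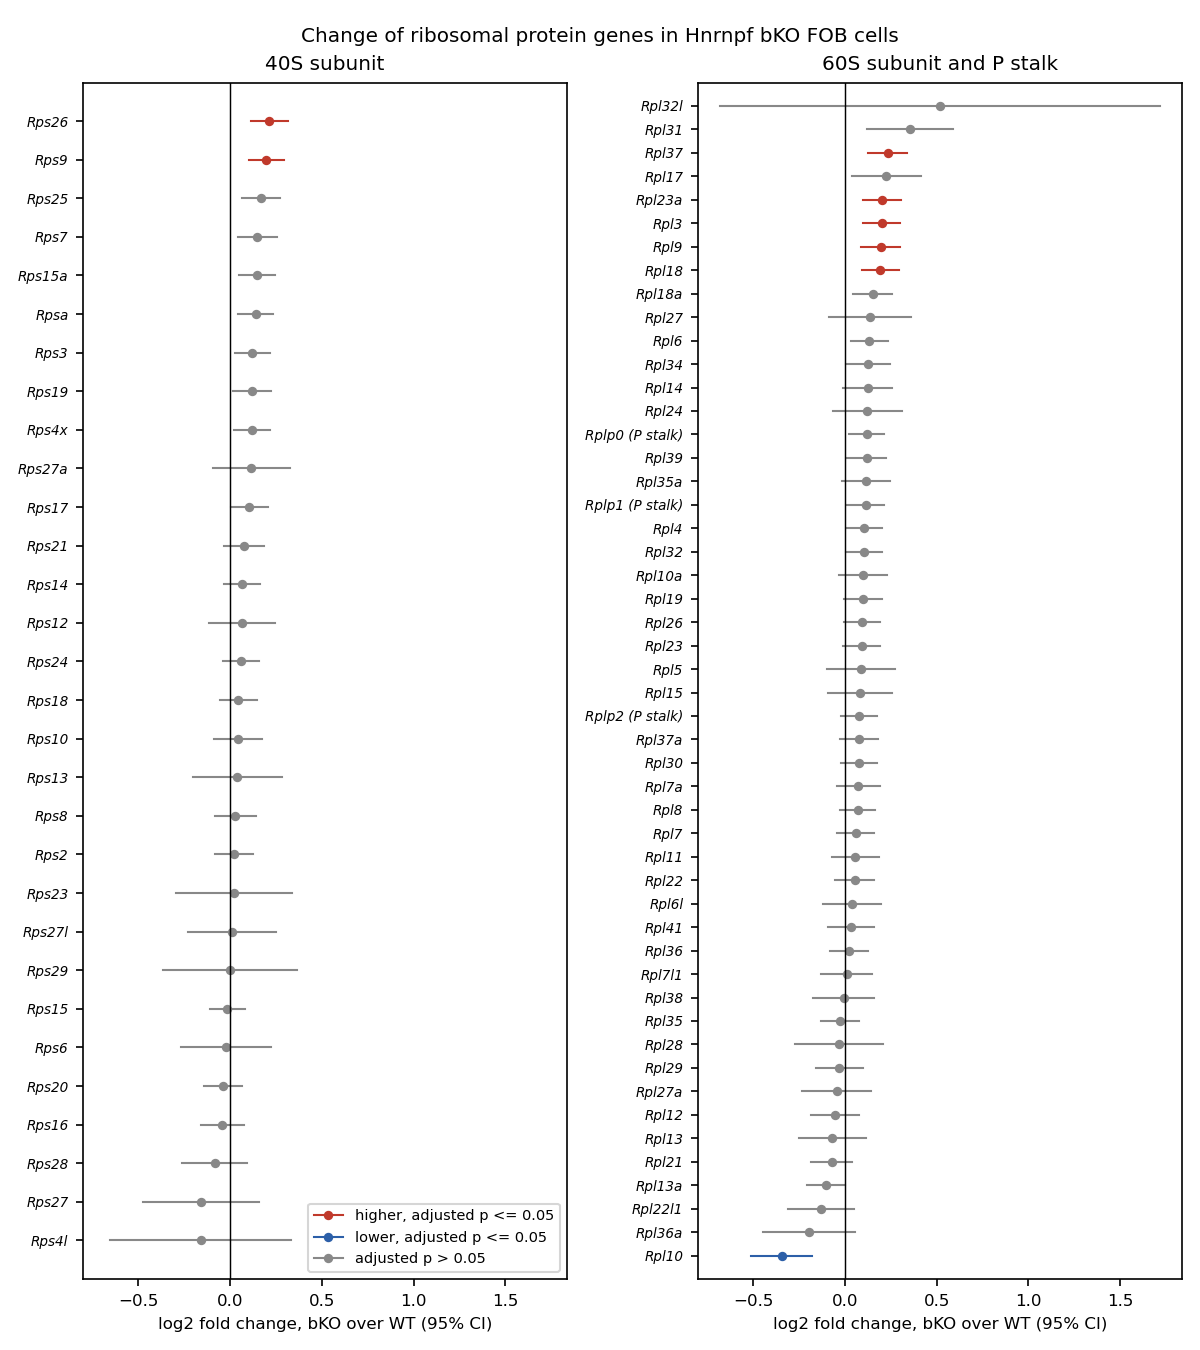
Log2 fold change of tested ribosomal protein genes in bKO over WT, with its 95% confidence interval, for the 40S subunit (left) and for the 60S subunit with the P stalk (right). Most points lie a little above 0, the 7 genes called higher lie between 0.19 and 0.23, and Rpl10 at -0.35 is the gene called lower.

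The precision sets how small a change could be seen. The intervals of the 59 members with at least 1000 counts on average all lay between -0.21 and 0.34 on the log2 scale, which is 0.866-fold to 1.26-fold, so a larger change of any of these genes lay outside its interval. The SE ran from 0.04 for Rpsa to 0.55 for Rpl32l. The calls rested on few libraries: without Hnrnpf bKO 1 no member was called, higher or lower (14 at an unadjusted p under 0.05), without Hnrnpf bKO 2 there were 2 higher and 1 lower, without WT 1 there were 4 higher and 1 lower, and without WT 2 there were 7 higher and 0 lower. The median change stayed between 0.08 and 0.09 in those 4 fits.

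In the 60S subunit, 5 genes were higher. Rpl37 had 275 and 283 CPM in WT and 331 and 319 CPM in bKO. Both bKO libraries were above both WT libraries, and the log2 fold change of 0.23 (SE 0.05, adjusted p = 0.0129) is a rise of 17.5%, the largest percent change among the 7. Its copy Rpl37rt, which differs from it by the single base shown above, had 61.6 and 57.4 CPM in WT and 69.6 and 68.5 CPM in bKO. That copy changed by 0.23 with an adjusted p of 0.0811.

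Rpl3, which lies close to the site where amino acids are joined, had 635 and 637 CPM in WT and 725 and 723 CPM in bKO. The replicates lay within a few CPM of each other and the groups far apart, with a log2 fold change of 0.20 (SE 0.05, adjusted p = 0.0192). Rpl18 had 778 and 791 CPM in WT and 906 and 872 CPM in bKO, a log2 fold change of 0.19 (SE 0.05, adjusted p = 0.0238). The groups of Rpl18 did not overlap, and only 1.14% of the counts on it and its copies lay on copies.

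Rpl23a, at the mouth of the exit tunnel for new proteins, had 291.3 and 290.8 CPM in WT and 335 and 329 CPM in bKO (log2 fold change 0.20, SE 0.05, adjusted p = 0.0244). Rpl9, near the base of the stalk, had 287 CPM in each WT library and 324 and 328 CPM in bKO (log2 fold change 0.19, SE 0.05, adjusted p = 0.0288). Both genes were higher in each bKO library than in either WT library. They have the largest shares on copies among the 8 genes called, 19.6% for Rpl23a and 30.7% for Rpl9.

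In the 40S subunit, 2 genes were higher, and both had nearly all of their counts at their own locus. Rps26, which sits where the mRNA leaves the ribosome, had 574 and 582 CPM in WT and 672 and 659 CPM in bKO, a log2 fold change of 0.21 (SE 0.05, adjusted p = 0.0137). Rps9, a core protein of the 40S body, had 1227 and 1255 CPM in WT and 1428 and 1396 CPM in bKO, a log2 fold change of 0.20 (SE 0.04, adjusted p = 0.0177). In both genes the bKO libraries stood above the WT libraries without overlap. Copies held 0.344% of the counts of Rps26 and its copies and 0.284% of those of Rps9.

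**Figure D4:**
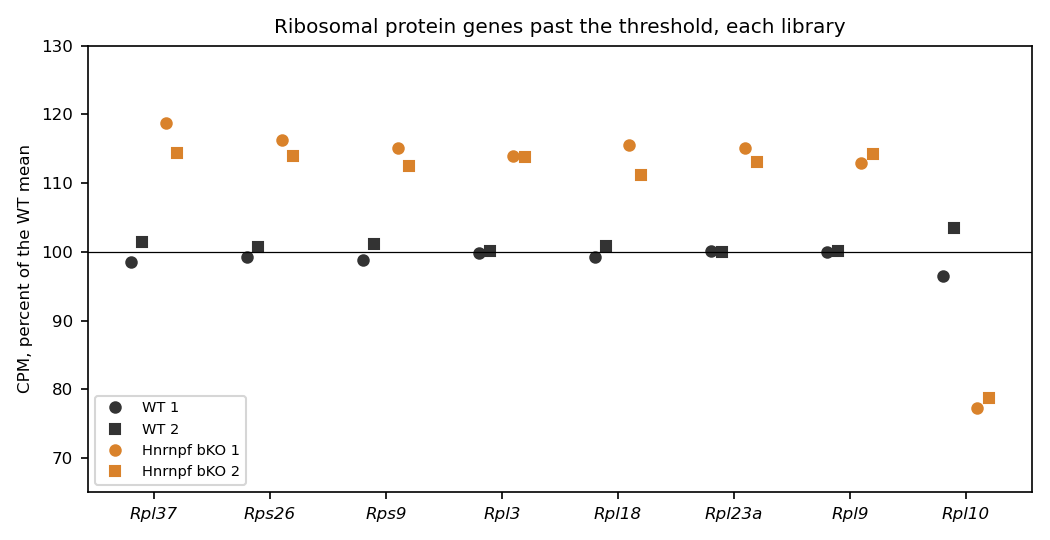
CPM of the 8 called ribosomal protein genes in each library, as a percent of the mean of both WT libraries, with the axis running from 65% to 130%. In the 7 genes on the left every bKO library lies above every WT library, and in Rpl10 every bKO library lies below.

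Rpl10 went the other way. It encodes a 60S protein that joins the particle late, in the cytoplasm, and lies near the sites where tRNAs bind. Its counts were 948 and 1175 in WT and 729 and 855 in bKO, or 57.9 and 62.1 CPM against 46.4 and 47.3 CPM. Both bKO libraries were below both WT libraries, and it decreased by 0.35 on the log2 scale (SE 0.08, adjusted p = 0.0156). It is among the low members, with 26.0 FPKM. It has 11 copies, at least 1 of them identical, and copies held 7.97% of the counts. With the counts of copies added to each gene it decreased by 0.29 (adjusted p = 0.0329). Without WT 2 or without Hnrnpf bKO 1 it was not called (adjusted p = 0.0657 and 0.0835), and over 14 other fits its adjusted p ran from 0.0013 to 0.0863.

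Other genes came near the threshold or had large values with few counts. Rpl31, a 60S protein by the tunnel exit, drew 266 and 320 counts in WT against 332 and 379 in bKO. Its log2 fold change of 0.35 (SE 0.11) was the largest in size among members with at least 100 counts on average and did not pass (adjusted p = 0.0702). Copies held 72.9% of its counts, 1 of them (Rpl31-ps8) identical over 375 bases. Rpl17, at the tunnel exit too, drew 515 and 556 counts in WT against 560 and 631 in bKO (log2 fold change 0.23, SE 0.09, adjusted p = 0.156). Rps25, named here after its values were seen, had 459 and 478 CPM in WT and 523 and 522 CPM in bKO and lay just outside the threshold (log2 fold change 0.17, SE 0.05, adjusted p = 0.0513).

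The P stalk genes had the same direction at all 3 members and did not pass the test. Rplp0, the base of the stalk, had 1761 and 1816 CPM in WT and 1922 and 1930 CPM in bKO (log2 fold change 0.12, SE 0.04, adjusted p = 0.143). Rplp1 had 1127 and 1176 CPM in WT and 1259 and 1212 CPM in bKO (log2 fold change 0.11, SE 0.05, adjusted p = 0.18). Rplp2, its partner, had 708 and 724 CPM in WT and 753 and 746 CPM in bKO (log2 fold change 0.08, SE 0.05, adjusted p = 0.382). The groups did not overlap in any of the 3, and 2 of them had an unadjusted p under 0.05. DESeq2 and limma called none of them either.

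None of the 10 genes with the highest FPKM was called by edgeR, DESeq2 or limma, although 6 had an unadjusted p under 0.05. Rps4x, which is X-linked in the mouse, and Rpl4 and Rpl32 of the 60S subunit had log2 fold changes of 0.12, 0.11 and 0.10, and Rpl8 and Rpl36 had 0.07 and 0.02. Rps15 had a value on the other side of 0, with 1194 and 1212 CPM in WT and 1188 and 1174 CPM in bKO, a log2 fold change of -0.02 (95% confidence interval -0.11 to 0.08). Rpsa, which is also known as a laminin receptor, had 1648 and 1674 CPM in WT and 1833 and 1799.8 CPM in bKO (log2 fold change 0.14, SE 0.04, adjusted p = 0.0787). DESeq2 called Rpsa at an adjusted p of 0.0446, and its adjusted p ran from 0.0245 to 0.339 over 14 other fits.

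Paralogs, whose symbols end in l or l1, were at low levels in FOB cells beside most other members. None was called by any of the 3 tools or had an unadjusted p under 0.05. Rpl10l and Rps12l1 had 0 counts in all 4 libraries. Rpl3l, known from muscle, had 2 counts in WT 2 and 0 elsewhere. Rpl39l, known from testis, drew 3 and 2 counts in WT against 0 and 1 in bKO. These 4 were left out by the filter. Most paralogs with counts were below the gene they resemble: Rpl6l had a mean of 68.8 FPKM against 177 FPKM of Rpl6, Rpl22l1 had a mean of 22.9 FPKM against 92.4 FPKM of Rpl22, Rps4l 5.06 FPKM against 747 FPKM of Rps4x, and Rpl32l 2.6 FPKM against 836 FPKM of Rpl32. Rps27l was the exception, with 23.0 FPKM against 10.9 FPKM of Rps27, but Rps27 has an identical copy, Rps27rt, which held 7649 counts against 787 on the gene.

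Rpl22l1, which can take the place of Rpl22, drew 777 and 913 counts in WT against 641 and 828 in bKO (log2 fold change -0.13, SE 0.08, adjusted p = 0.424). Both bKO libraries were below both WT libraries in CPM. Rpl22 itself had 265 CPM in each WT library and 270.1 and 276 CPM in bKO. Rpl7l1, a factor of 60S assembly related to Rpl7, had 78.4 and 81.97 CPM in WT and 79.6 and 80.5 CPM in bKO, with a 95% confidence interval of the log2 fold change from -0.13 to 0.15. Rps27l had 18.1 and 19.5 CPM in WT and 18.1 and 19.4 CPM in bKO (log2 fold change 0.01, SE 0.11). Rps4l (0.23) and Rpl32l (0.55) had the largest SE of all members, with 328 and 70 counts over the 4 libraries. Rpl6l matched Rpl6 at 98.7% of 871 aligned bases and Rpl32l matched Rpl32 at 96.0% of 404 bases, so their counts are uncertain in the same way as those of the copies. Rpl6l had 60.1 and 58.6 CPM in WT and 62.3 and 58.6 CPM in bKO.

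In sum, the copies had the same direction as the members. Copies held 0.617% and 0.628% of all counts in WT against 0.669% and 0.642% in bKO, and members and copies together 4.39% and 4.46% in WT and 4.73% and 4.63% in bKO, with no overlap between the groups. Of 187 copies that passed the filter, 5 were called higher and 1 lower by edgeR, and 2 and 1 by DESeq2. By edgeR that is 2.67% higher and 0.535% lower, below the 4.15% and 2.83% over all genes tested. Rps12-ps3, printed above, had 347 and 377 CPM in WT and 461 and 420.2 CPM in bKO (log2 fold change 0.29, SE 0.06, adjusted p = 0.00822). Rps12 itself did not pass the test (log2 fold change 0.06, SE 0.08, adjusted p = 0.733). With the counts of all its copies added, Rps12 had a log2 fold change of 0.27 (SE 0.05, adjusted p = 0.0086) and was called. The difference of Rps12 thus depends on whether its copies are counted with it. Rpl9-ps6 rose with Rpl9, with 90.7 and 85.8 CPM in WT and 111 and 103 CPM in bKO (log2 fold change 0.29, SE 0.06, adjusted p = 0.0142). Gm10275, an identical copy of Rpl12, was the copy called lower, with 271 and 301 CPM in WT and 248 and 240.4 CPM in bKO (log2 fold change -0.22, SE 0.06, adjusted p = 0.035). With copies added to every member, 9 members were higher and 1 lower, and 67 of 82 were positive.

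Ribosomal protein genes that the symbol rule misses include Rps3a1, Rpl36al and Fau, a fusion of a ribosomal protein with a ubiquitin-like protein. Rps3a1, with a mean of 1029.5 FPKM, had 949 and 981 CPM in WT and 1063 and 1030.3 CPM in bKO (log2 fold change 0.13, SE 0.05, adjusted p = 0.121). Rpl36al had 86.7 and 83.5 CPM in WT and 89.7 and 93.7 CPM in bKO (log2 fold change 0.12, SE 0.06, adjusted p = 0.317). Fau had 55.7 and 64.7 CPM in WT and 65.5 and 64.95 CPM in bKO (log2 fold change 0.13, SE 0.08, adjusted p = 0.422). In each of these 3 the bKO libraries lay above the WT libraries, and edgeR called none, with 1 (Rps3a1) at an unadjusted p under 0.05.

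Other genes of translation were taken as 5 lists of 225 genes in all. Of 222 tested, 3 were called higher and 1 lower (1.35% and 0.450%, against 4.15% and 2.83% of all genes). None of 38 initiation factors, 65 ribosome biogenesis genes or 78 mitochondrial ribosomal protein genes was called by edgeR, DESeq2 or limma, with 3, 8 and 7 at an unadjusted p under 0.05. Their median log2 fold changes were 0.05, 0.01 and 0.02. The mitochondrial ribosomal proteins, which serve the separate ribosome of that organelle, had 53.8% of genes positive, where the cytosolic set had 75.6%. In the other lists 72.2% (elongation and termination), 63.2% (initiation), 54.2% (mTORC1 and TOP) and 52.3% (biogenesis) were positive. The mitochondrial genes had a low median of 9.85 FPKM, and cytosolic members under 1000 counts on average were 52.2% positive. The difference between the sets was not tested. The list of elongation and termination factors also holds Naca, a chaperone that binds new proteins at the tunnel exit. Of the 18 genes tested in that list, Naca alone was called. It had 197 and 182 CPM in WT and 220.02 and 224 CPM in bKO (log2 fold change 0.24, SE 0.06, adjusted p = 0.0207).

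**Figure D5:**
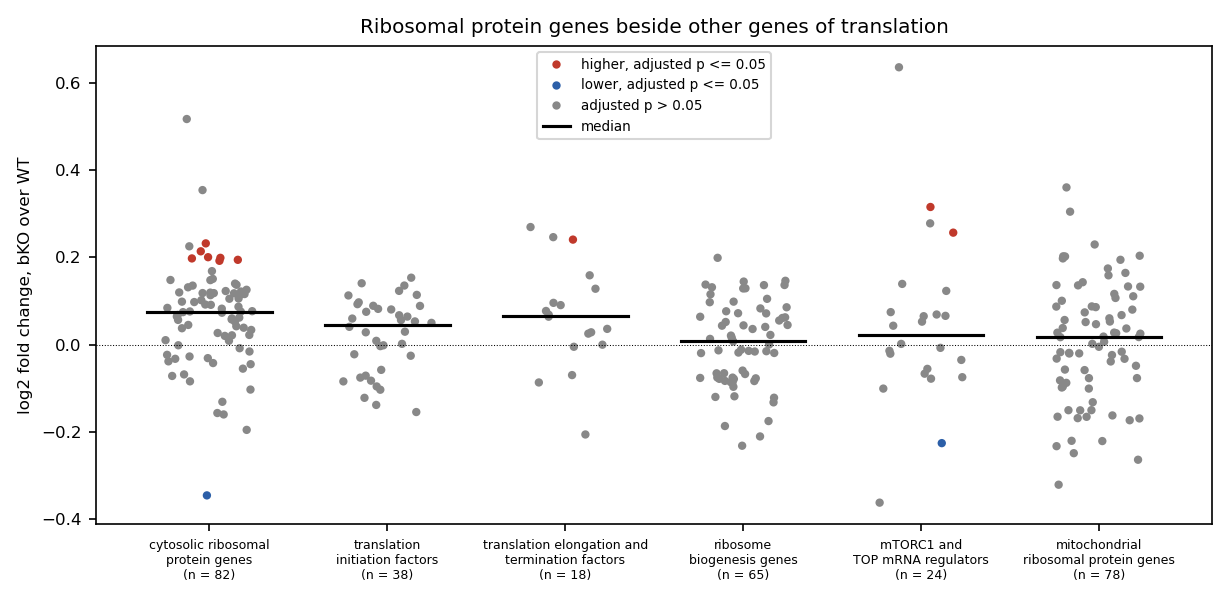
Log2 fold change in bKO over WT of the tested genes of each set, with 1 point for each gene and a bar at the median. The cytosolic ribosomal protein genes have a median of 0.08 and 8 called genes, and the other sets have medians between 0.01 and 0.07 and at most 3 called genes.

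The list of mTORC1 and TOP mRNA regulators holds the transcription factor genes Myc, Mycn and Mxd4 as well. Of its 24 genes tested, 3 were called: Myc, Mxd4 and Tia1. Myc, which drives transcription of ribosomal genes, had 91.7 and 105 CPM in WT and 125.2 and 118 CPM in bKO (log2 fold change 0.32, SE 0.07, adjusted p = 0.0146). Mxd4, of the MAX dimerization family that opposes Myc, had 169 and 172 CPM in WT and 194 and 209.9 CPM in bKO (log2 fold change 0.26, SE 0.06, adjusted p = 0.0153). Tia1, an RNA-binding protein that holds TOP mRNAs in stress, had 163 and 175 CPM in WT and 146 and 141 CPM in bKO, and decreased by 0.23 on the log2 scale (SE 0.06, adjusted p = 0.027). The 3 differences stood clear of any overlap between the groups, and their part in the levels of ribosomal protein mRNA was not tested.

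The splicing table lists 1556 events that the authors called between WT and bKO with rMATS, in 1173 genes. None of them lies in a ribosomal protein gene. Of the 3970 genes that averaged 1000 counts or more, 512 (12.9%) have an event, and 59 members have that depth. The table holds only events past the authors' limits, so how many events were tested in the members is not known. Rps3a1, Rpl36al and Fau have none either. In the translation lists, events were listed for Eif2d, Eif4g1 and Eif4h (initiation), Eif5a (elongation), Nolc1 (ribosome biogenesis), Rps6kb2 (the mTORC1 target S6 kinase 2) and Mrps17, Mrps18b and Mrps24 (mitochondrial ribosome). Skipped exons made all 4 events of the initiation factors, both events of Eif5a and all 3 of Rps6kb2, while Nolc1 had 1 retained intron.

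Some members had features that the rule did not use. A TOP start, taken as C and at least 4 further pyrimidines at the first base of an annotated protein-coding transcript on its own strand, was found in 20 of 79 members tested that have such a transcript (25.3%), against 4.41% of 11149 other protein-coding genes tested. Annotated ends can miss the true start by a few bases, so absence of the run says only that these letters are not at this base. Of the 8 called genes, Rpl37 and Rps9 have it, and the first 24 bases of these transcripts, all in the 5' UTR, are shown with the opening pyrimidine run in capitals.
Rpl37, chr15:5116645-5116668, + strand: CTCTTCCggtctctttggcctcgc
Rps9, chr7:3704038-3704061, + strand: CTCTTTgtctcgggcctgagttcg

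The median log2 fold change in bKO was 0.08 both in the 20 tested genes with the run and in the 59 without it. The other 3 tested members (Rpl6l, Rps4l and Rpl32l) have no annotated protein-coding transcript and were not searched. Between the start and end of 29 members, on the same strand, lie 56 genes of small nucleolar RNAs, the guides of rRNA modification. The share of other genes that hold one was not counted. The median was 0.08 in those 29 genes and 0.07 in the 53 tested members without one. Direction differed more with the level: members tested at or above 50 FPKM had a median of 0.09, with 48 of 55 positive, and those under 50 FPKM had a median of 0.01, with 14 of 27 positive.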

How the data were processed

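Poly(A) RNA of sorted FOB cells was sequenced. The authors trimmed reads with cutadapt 1.9.1, aligned them to GRCm38 with HISAT2 2.0.1 and deposited HTSeq 0.6.1 counts per gene with FPKM values. The strand setting and annotation release are not given in the sources used here. Coordinates of all 86 members equal those of GENCODE M21. Members, lists and tests were chosen with earlier results of these data known. Counts left by filterByExpr (14123 genes) were fitted by genotype with edgeR 4.0.16 (TMM, quasi-likelihood test, Benjamini-Hochberg over all genes, threshold 0.05, R 4.3.3), a fit tested on simulated data. CPM are counts scaled to a library total of 1e6. Named genes were the 10 members of highest FPKM, called members, the 5 largest changes at 100 or more counts on average, paralogs, P stalk genes, Rpsa, untested members, and called or differently spliced list genes. A few of these are not reported here. Alternatives used DESeq2 1.42.0, limma 3.58.1 on log2(FPKM + 0.1 or 1), other scalings and filters, a replicate block and libraries left out. Copies were found with blastn 2.17.0 after the counts had been seen. The authors' rMATS table was deposited with an FDR (adjusted p-value) and an inclusion level difference (a signed score) for each event, used only for 2 stricter cutoffs. Counts of replicates differed 3.97 to 4.38 times more than sampling noise (chi-square per degree of freedom). Precision follows depth, 15698567 to 18908963 counts a library.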

Additional observations from a re-analysis of the deposited data

How the results depend on the processing

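The 7 members called higher and 1 lower kept their direction in all 112 other fits of these 8 genes, and passed the threshold in 70 of them. The count of members higher was 11 with no filter on low counts, 14 with the threshold at 0.1, and 0 with the 2-fold threshold, with the replicate block and with limma on log2(FPKM + 0.1) or log2(FPKM + 1) (17, 22 and 22 members at an unadjusted p under 0.05). The count lower was 0 with the 2-fold threshold and with both limma fits. Leaving out a library gave 0 to 7 higher and 0 to 1 lower. For the translation lists, 3 higher and 1 lower became 7 higher with no filter, 7 and 3 with the threshold at 0.1, and 0 and 0 with the 2-fold threshold and both limma fits. None was lower with DESeq2 or the replicate block. Leaving out a library gave 2 to 4 higher and 0 to 1 lower. The replicate block used the numbers of the labels, which name samples and are not known to pair them: deviations of same-numbered samples correlated at -0.07 over 14123 genes. The cause of these moves was not tested. The median change of members stayed between 0.06 and 0.09 and their summed level between 0.07 and 0.09 (log2), the latter 0.08 by library totals. Of the paralogs, 4 changed sign: Rps27l (-0.0017 with library totals alone, -0.0015 and -0.0015 in the limma fits, -0.048 to 0.066 without a library), Rpl7l1 (-0.0028, -0.0022 and -0.0021 in the same fits, -0.017 to 0.041 without a library), Rps4l (-0.32 to 0.012 without a library) and Rpl32l (-0.59 to 1.17). Counts set the limit: the narrowest interval of a member spans 0.09 either side of its log2 fold change.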
